A study of Mus musculus with 27 samples.

Results

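The 10 genes described here encode the contractile apparatus of smooth muscle: Acta2, Tagln, Myh11, Cnn1, Mylk, Des, Myl9, Tpm2, Lmod1 and Actg2. They were listed by symbol, and all 10 were found among the 54446 gene IDs of the deposited tables. Their levels are read counts on the reverse strand scaled to the library's reads in genes (CPM). Acta2 and Tagln are treated as early and Myh11 and Cnn1 as late contractile markers.

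RNA was sequenced from cells sorted out of 12-week-old non-obese diabetic mice, either carrying the Ins2-CCL21 transgene (TG+, Ins2-CCL21 NOD) or lacking it (TG-, NOD/ShiLtJ). Ins2-CCL21 drives the chemokine CCL21 in pancreatic beta cells from an insulin promoter, and the NOD background of spontaneous autoimmune diabetes is common to all groups. By label, islet infiltrate lymphocytes (CD45) have 4 TG+ and 4 TG- libraries, islet gp38-high FRC-like cells 2 TG+ and 2 TG-, islet gp38-low FRC-like cells 4 TG+ and 4 TG-, and fibroblastic reticular cells of skin-draining lymph nodes (FRC) 3 TG+ and 4 TG-. No label ties the libraries of a group to different animals, so p-values measure the spread between these 27 libraries, which may be partly technical.

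Smooth muscle contracts when calcium activates myosin light chain kinase (Mylk), which phosphorylates the regulatory light chain (Myl9) of smooth muscle myosin (Myh11 is its heavy chain) and lets it pull on filaments of smooth muscle actin. Acta2 and Tagln come on early when a cell takes up this programme and are also made by myofibroblasts and pericytes, whereas Myh11 and Cnn1 are classed as markers of mature smooth muscle. Fibroblastic reticular cells of lymph nodes are contractile stromal cells known to carry actin and desmin filaments, and serum response factor bound to CArG boxes drives many of these genes.

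The markers of the sorted populations did not follow the labels, so each library was also placed in 1 of 4 classes by its own marker levels. A library was Ptprc-high above 100 CPM of Ptprc (which encodes CD45), otherwise Ccl21a-high above 1000 CPM of Ccl21a (a chemokine of lymphoid stroma), otherwise Msln-high above 100 CPM of Msln (a mesothelial surface protein), and otherwise in the rest. The Ccl21a-high class held 7 libraries, 4 labelled CD45 and 3 labelled gp38-low. The Msln-high class held 4, 1 from each labelled population, and the rest held 8 (3 gp38-low, 2 gp38-high, 2 CD45 and 1 FRC). The Ptprc-high class held 8, of which 5 were labelled FRC and 1 each CD45, gp38-high and gp38-low. The lowest Ptprc-high library had 169 CPM of Ptprc (FRC TG- replicate 4) and no library of another class more than 5.79 CPM. For Ccl21a the values next to the threshold were 2162 and 5.28 CPM, and for Msln 573 and 2.52 CPM. Halved thresholds changed no class, and doubled ones moved FRC TG- replicate 4 to the rest. The leukocyte markers, which include the class gene Ptprc, summed to 4363 to 7426 CPM in the Ptprc-high class. The 7 adventitial fibroblast markers summed to 8397 to 12450 CPM in the rest, against 1361 to 2825 CPM in the Ccl21a-high class. Pdpn, which encodes gp38, had medians of 93.3 CPM in the Ccl21a-high class, 184 CPM in the Msln-high class, 66.2 CPM in the rest and 0.287 CPM in the Ptprc-high class. Each population's libraries thus held classes whose defining markers go against its label. The classes rest on measured values, so levels are described across them without a test. A group name below means the library labelled so, and whether libraries and labels were exchanged was not tested, so each difference by label holds only for the labels as given.

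Libraries held 8517844 to 25194443 reads in genes, and a gene with no read may still be present at up to 3 counts, which is 0.119 to 0.352 CPM and covers counting error only. The non-coding RNA Gm26917 took 20.8% to 36.0% of the reads in genes in Ptprc-high libraries and 9.78% to 22.2% in Ccl21a-high libraries, against 5.31% to 7.93% in the other classes, and these reads count in the CPM total. In bulk libraries, fewer cells of a type and less RNA per cell cannot be told apart.

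Promoter sequence was at hand for 7 of the 10 genes, and 4 promoters are shown because they hold, or lack, the CArG box through which serum response factor acts on this gene group. Each is the 250 bases before the RefSeq gene start in GRCm38.p6, read 5′ to 3′ on the gene's strand, with capitals marking matches to the CArG box (up to 1 letter changed, either strand). The Acta2 window lies at chr19:34255374-34255623 on the minus strand, Myl9 at chr2:156775214-156775463 on the plus strand, Lmod1 at chr1:135324563-135324812 on the plus strand and Cnn1 at chr9:22099003-22099252 on the plus strand. The gene coordinates given further below come from the GENCODE annotation, where each of these genes starts inside its window. By that annotation, part of each window thus lies within the gene.
Acta2: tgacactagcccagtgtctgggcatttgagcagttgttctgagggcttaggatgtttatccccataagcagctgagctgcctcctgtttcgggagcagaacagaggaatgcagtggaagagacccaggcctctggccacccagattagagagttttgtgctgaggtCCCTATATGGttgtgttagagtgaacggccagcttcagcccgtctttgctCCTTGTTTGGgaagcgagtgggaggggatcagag
Myl9: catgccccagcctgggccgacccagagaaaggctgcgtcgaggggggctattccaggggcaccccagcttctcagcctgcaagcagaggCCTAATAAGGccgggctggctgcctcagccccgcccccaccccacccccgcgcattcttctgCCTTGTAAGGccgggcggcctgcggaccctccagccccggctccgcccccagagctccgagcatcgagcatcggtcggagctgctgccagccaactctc
Lmod1: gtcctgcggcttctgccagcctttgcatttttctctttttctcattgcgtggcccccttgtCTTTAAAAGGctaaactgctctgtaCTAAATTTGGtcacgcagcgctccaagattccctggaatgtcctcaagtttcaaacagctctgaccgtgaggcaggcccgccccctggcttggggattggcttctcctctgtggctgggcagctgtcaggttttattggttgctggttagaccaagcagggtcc
Cnn1: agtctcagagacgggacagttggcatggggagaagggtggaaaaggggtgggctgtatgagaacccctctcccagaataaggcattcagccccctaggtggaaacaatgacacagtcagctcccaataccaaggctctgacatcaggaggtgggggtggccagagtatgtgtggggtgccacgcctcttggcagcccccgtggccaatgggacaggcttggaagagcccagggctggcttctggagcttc
The matches begin 84 and 34 bases before the RefSeq start in Acta2, 161 and 99 in Myl9, and 189 and 164 in Lmod1. The Cnn1 window, like those of Mylk, Des and Tpm2, held none.

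An exact CArG box stood in 1 of the 7 promoters (Myl9), against 1.47% of 32851 mouse promoters of the same length. With up to 1 letter changed, 3 of 7 held a match, against 18.6% of all promoters. Those 3 each held a pair of matches, against 2.96% of all promoters with 2 or more. The motif CATTCC, read by TEAD factors on either strand, stood in 3 of 7 (Acta2, Mylk and Lmod1), against 12.6%. A match is a description of the letters only.

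The contractile genes were highest in the Ccl21a-high libraries. The 10 genes together had 2269.5, 2652 and 2936 CPM (lowest, median and highest library) in the Ccl21a-high class and 287, 485 and 611 CPM in the Msln-high class. They had 142, 159 and 173 CPM in the rest and 6.67, 16.7 and 21.0 CPM in the Ptprc-high class. These 4 ranges did not overlap. With doubled thresholds FRC TG- replicate 4, at 9.57 CPM, joined the rest, which then overlapped the Ptprc-high class. The coefficient of variation of the sum was 8.11% over the 7 Ccl21a-high libraries and 6.62% over the rest, against 29.0% in Msln-high and 32.7% in Ptprc-high libraries.

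**Figure D1:**
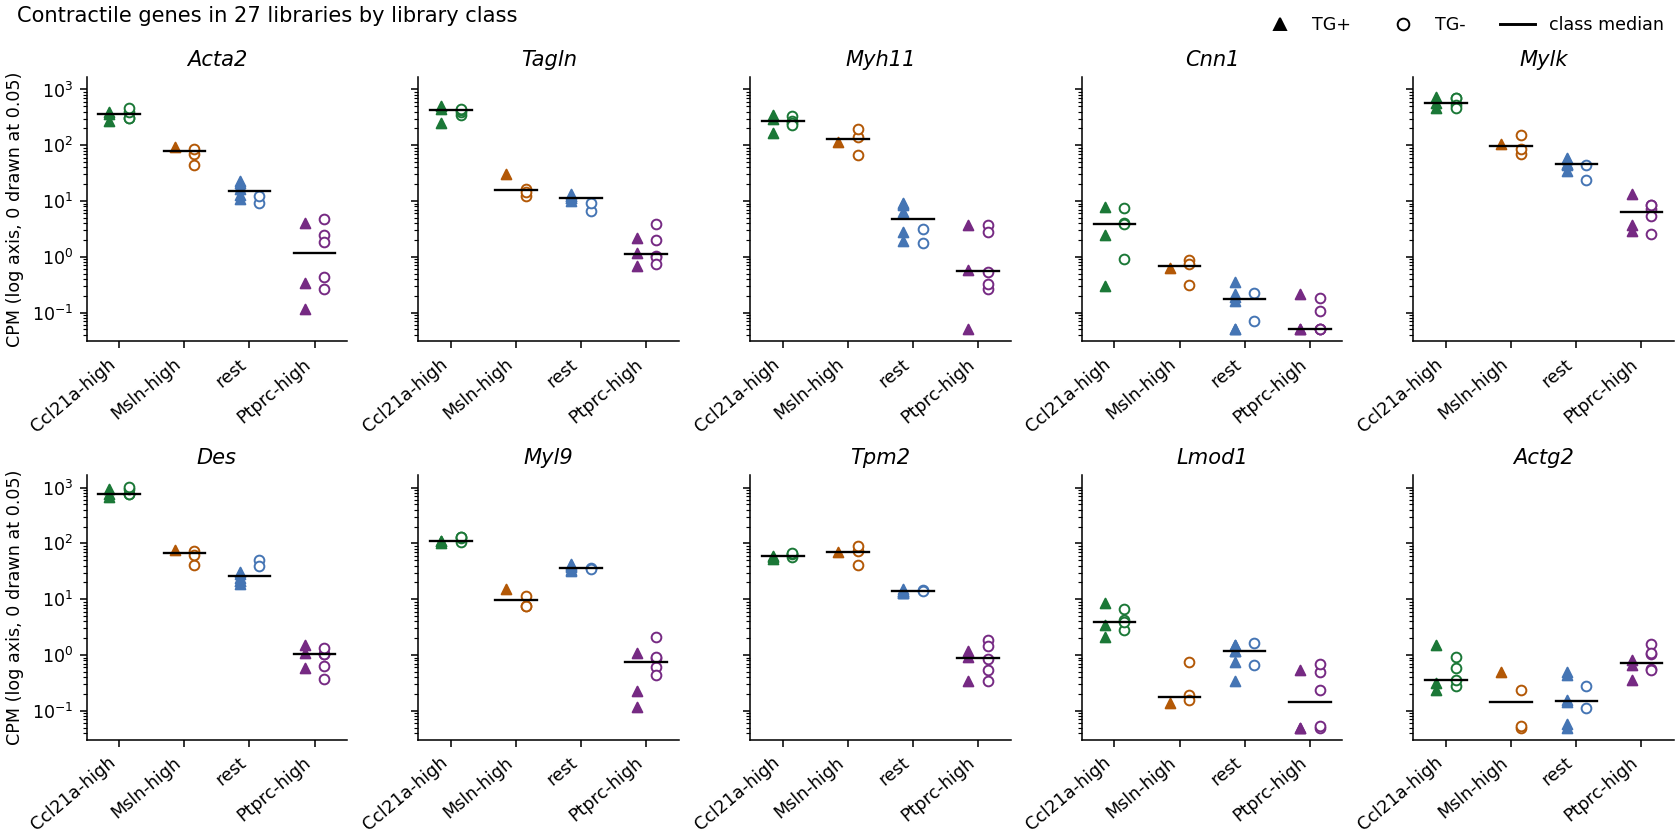
CPM of each contractile gene (log axis, 0 drawn at 0.05) in each of 27 libraries by library class, with filled triangles for TG+, open circles for TG- and a bar at the class median. Acta2, Tagln, Mylk, Des and Myl9 sit highest in the Ccl21a-high class with no overlap with any other class, Tpm2 overlaps between the Ccl21a-high and Msln-high classes, and Actg2 stays at or below 1.57 CPM in every library.

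Acta2, Tagln, Myh11, Mylk, Des, Myl9 and Tpm2 averaged at least 1 CPM also outside the Ccl21a-high class. These 7 were higher in every Ccl21a-high library than in any library of the rest, where 8.48% of 14617 such genes were. Against the Msln-high libraries, 5 of the 7 were higher without overlap (8.91% of genes), with overlap for Myh11 and Tpm2. The 7 were above every Ptprc-high library, against 27.2% of genes. Cnn1 and Lmod1 averaged 0.215 and 0.603 CPM outside the Ccl21a-high class and reached a mean of 1 CPM only through it. Actg2, the actin of gut smooth muscle, did not reach a mean of 1 CPM. Its lowest, median and highest levels were 0.236, 0.361 and 1.50 CPM in the Ccl21a-high class, against 0.352, 0.729 and 1.57 CPM in the Ptprc-high class, and these ranges overlapped.

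Acta2 (ENSMUSG00000035783.8, chromosome 19, 34241090 to 34255590, minus strand, mm10), the vascular smooth muscle actin and an early marker, had 275, 366 and 456 CPM (lowest, median, highest) in the 7 Ccl21a-high libraries. In the Msln-high class it had 93.6 CPM in CD45 TG+ replicate 1, against 44.3 CPM in gp38-high TG- replicate 1, 69.9 CPM in gp38-low TG- replicate 4 and 85.4 CPM in FRC TG- replicate 2. It had 9.15, 14.9 and 22.6 CPM in the rest and 0.117, 1.15 and 4.82 CPM in the Ptprc-high class. The 4 classes thus held separate levels of Acta2, in the order Ccl21a-high, Msln-high, rest and Ptprc-high.

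Tagln (ENSMUSG00000032085.5, chromosome 9, 45929619 to 45936058, minus strand), which encodes the actin-binding protein transgelin, had 248, 426 and 505 CPM in the Ccl21a-high class. The Msln-high libraries had 30.2 CPM in CD45 TG+ replicate 1, against 16.7 CPM in gp38-high TG- replicate 1, 12.4 CPM in gp38-low TG- replicate 4 and 14.8 CPM in FRC TG- replicate 2. The rest had 6.70, 11.4 and 13.4 CPM and the Ptprc-high class 0.690, 1.11 and 3.83 CPM. Unlike Acta2, Tagln overlapped between the Msln-high libraries and the rest, with medians 1.38-fold apart. The exons of Tagln lie over those of Pcsk7 and Gm48529 on the opposite strand at 1349 of 1988 bases, and the unstranded count column held 6.20% of its reverse-strand reads, so its level rests on the stranded count.

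Myh11 (ENSMUSG00000018830.10, chromosome 16, 14194535 to 14291372, minus strand), the smooth muscle myosin heavy chain and a late marker, had 167, 270.4 and 347 CPM in the Ccl21a-high class. The Msln-high libraries reached this range: 116 CPM in CD45 TG+ replicate 1, against 67.6 CPM in gp38-high TG- replicate 1, 138 CPM in gp38-low TG- replicate 4 and 195 CPM in FRC TG- replicate 2. The rest had 1.79, 4.72 and 9.40 CPM and the Ptprc-high class 0, 0.565 and 3.70 CPM. FRC TG- replicate 2 lay above the lowest Ccl21a-high library, and each Msln-high library lay above all of the rest.

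Cnn1 (ENSMUSG00000001349.5, chromosome 9, 22099216 to 22109630, plus strand), which encodes calponin 1, an actin-binding brake on myosin, was far lower than Myh11 in the same libraries. The Ccl21a-high TG+ libraries had 0.295 CPM (CD45 replicate 3), 7.80 CPM (gp38-low replicate 1) and 2.498 CPM (gp38-low replicate 3). The Ccl21a-high TG- libraries had 0.900, 4.03 and 3.83 CPM in CD45 replicates 1 to 3 and 7.49 CPM in gp38-low replicate 3. Within a class whose Acta2 spanned 275 to 456 CPM, Cnn1 thus varied between 5 reads in CD45 TG+ replicate 3 and 99 reads in gp38-low TG+ replicate 1. It had 0.316 to 0.861 CPM in Msln-high libraries, at most 0.360 CPM in the rest and at most 0.218 CPM in Ptprc-high libraries, and 7 of 27 libraries had no Cnn1 read.

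Mylk (ENSMUSG00000022836.11, chromosome 16, 34745210 to 35002420, plus strand), the kinase that starts contraction, had 469, 576 and 745 CPM in the Ccl21a-high class, 68.4, 96.0 and 151 CPM in the Msln-high class, 24.0, 45.3 and 60.0 CPM in the rest and 2.55, 6.35 and 13.5 CPM in the Ptprc-high class. Its order of classes was that of Acta2, with no overlap. Des (ENSMUSG00000026208.9, chromosome 1, 75360329 to 75368579, plus strand), the muscle intermediate filament desmin, had 692, 779 and 1012 CPM in the Ccl21a-high class, 41.2, 68.1 and 77.7 CPM in the Msln-high class, 18.8, 26.6 and 50.9 CPM in the rest and 0.378, 1.05 and 1.53 CPM in the Ptprc-high class. The Msln-high libraries and the rest overlapped in Des.

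Myl9 and Tpm2 followed other orders. Myl9 (ENSMUSG00000067818.6, chromosome 2, 156775420 to 156781658, plus strand), the light chain that Mylk phosphorylates, had 103, 112 and 130.0 CPM in the Ccl21a-high class, 7.47, 9.57 and 15.3 CPM in the Msln-high class, 31.7, 36.4 and 43.2 CPM in the rest and 0.117, 0.737 and 2.13 CPM in the Ptprc-high class. Of the 9 genes that averaged at least 1 CPM over the 27 libraries, it alone was lower in every Msln-high library than in any of the rest, where 8.4% of genes were lower in this way and 19.9% higher. The 4 that were higher there were Acta2, Myh11, Mylk and Tpm2. Tpm2 (ENSMUSG00000028464.16, chromosome 4, 43514711 to 43523765, minus strand), a tropomyosin that lies along the actin filament, had 52.3, 58.9 and 68.2 CPM in the Ccl21a-high class, 40.6, 70.9 and 88.8 CPM in the Msln-high class and 12.7, 14.1 and 15.1 CPM in the rest. In Tpm2 the Msln-high class thus spanned the Ccl21a-high range on both sides.

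Lmod1 (ENSMUSG00000048096.7, chromosome 1, 135324807 to 135368065, plus strand), leiomodin 1, which seeds actin filaments in smooth muscle, had 2.07, 3.83 and 8.53 CPM in the Ccl21a-high class, 0.141, 0.175 and 0.759 CPM in the Msln-high class and 0.343, 1.19 and 1.62 CPM in the rest. Only 22 Lmod1 reads fell in the 4 Msln-high libraries together, against 144 in the 8 libraries of the rest. Between the rest and the Ptprc-high class, 6 of these 9 genes were higher in the rest without overlap, where 29.3% of genes were; the exceptions were Myh11, Cnn1 and Lmod1.

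Per kb of exon, the scale on which genes can be set against each other, Tagln (median 214 CPM per kb), Des (208 CPM per kb) and Acta2 (167 CPM per kb) led in the Ccl21a-high class. As a share of the 10 genes' per-kb sum, Des made up 23.8% to 36.5% over the 7 libraries and Acta2 18.4% to 22.7%. These shares did not overlap, while that of Tagln, at 18.3% to 29.3%, overlapped both. The levels of Des (184 to 270 CPM per kb) and Acta2 (125 to 208 CPM per kb) did overlap. Myl9 (96.5), Mylk (51.2), Myh11 (35.6) and Tpm2 (20.2 CPM per kb) followed, while Cnn1 (1.40), Lmod1 (0.970) and Actg2 (0.232 CPM per kb) lay well below. In the Msln-high class the leaders were Acta2 (35.4 CPM per kb), Tpm2 (24.4), Des (18.1) and Myh11 (16.7), with Tagln at 7.92 CPM per kb. In the rest, Myl9 (31.4 CPM per kb) stood above all the others, and Des (7.08) and Acta2 (6.79 CPM per kb) came next.

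**Figure D2:**
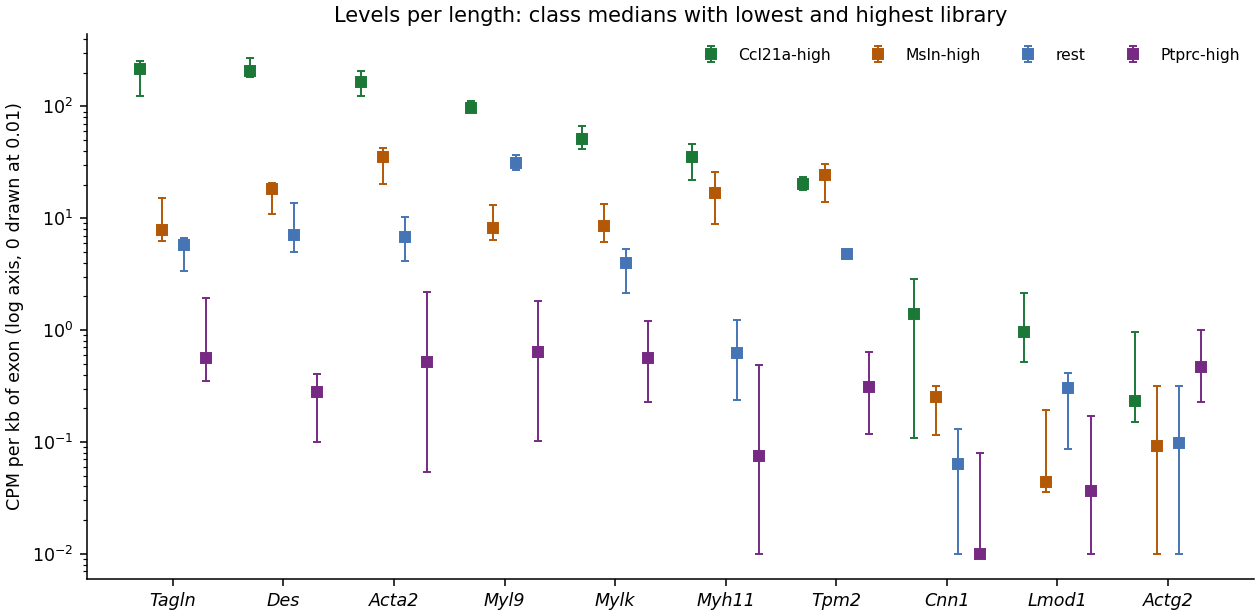
Median CPM per kb of exon (log axis, 0 drawn at 0.01) of each contractile gene by library class, with bars to the lowest and highest library of the class. Tagln, Des and Acta2 lead in the Ccl21a-high class, Acta2 and Tpm2 in the Msln-high class and Myl9 in the rest, while Cnn1, Lmod1 and Actg2 are lowest among the Ccl21a-high medians.

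The balance of late and early markers set the Msln-high libraries apart from the Ccl21a-high libraries and from the rest. Myh11 and Cnn1 reads made up 20.8% to 33.4% of the reads of the 4 markers in Ccl21a-high libraries (median 27.1%), 48.6% to 66.2% in Msln-high libraries (median 57.8%) and 8.54% to 25.5% in the rest (median 14.8%). Every Msln-high library lay above all Ccl21a-high libraries and all of the rest, while the Ccl21a-high libraries and the rest overlapped. The exact 95% binomial intervals of single libraries, which cover counting error only, were narrow in the Msln-high class (64.9% to 67.5% in FRC TG- replicate 2) and wider in the rest (6.91% to 11.8% in gp38-high TG+ replicate 2). In Ptprc-high libraries the share was 0% to 40% on 9 to 174 reads, too few to place them. By genotype within the Ccl21a-high class the share was 27.8%, 27.1% and 24.4% in TG+ (CD45 replicate 3, gp38-low replicates 1 and 3), against 33.4%, 28.2%, 23.3% and 20.8% in TG- (CD45 replicates 1 to 3 and gp38-low replicate 3). In the rest it was 8.54% to 25.5% in the 6 TG+ libraries, against 11.3% and 12.7% in the 2 TG- libraries. The genotypes overlapped in both classes.

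**Figure D3:**
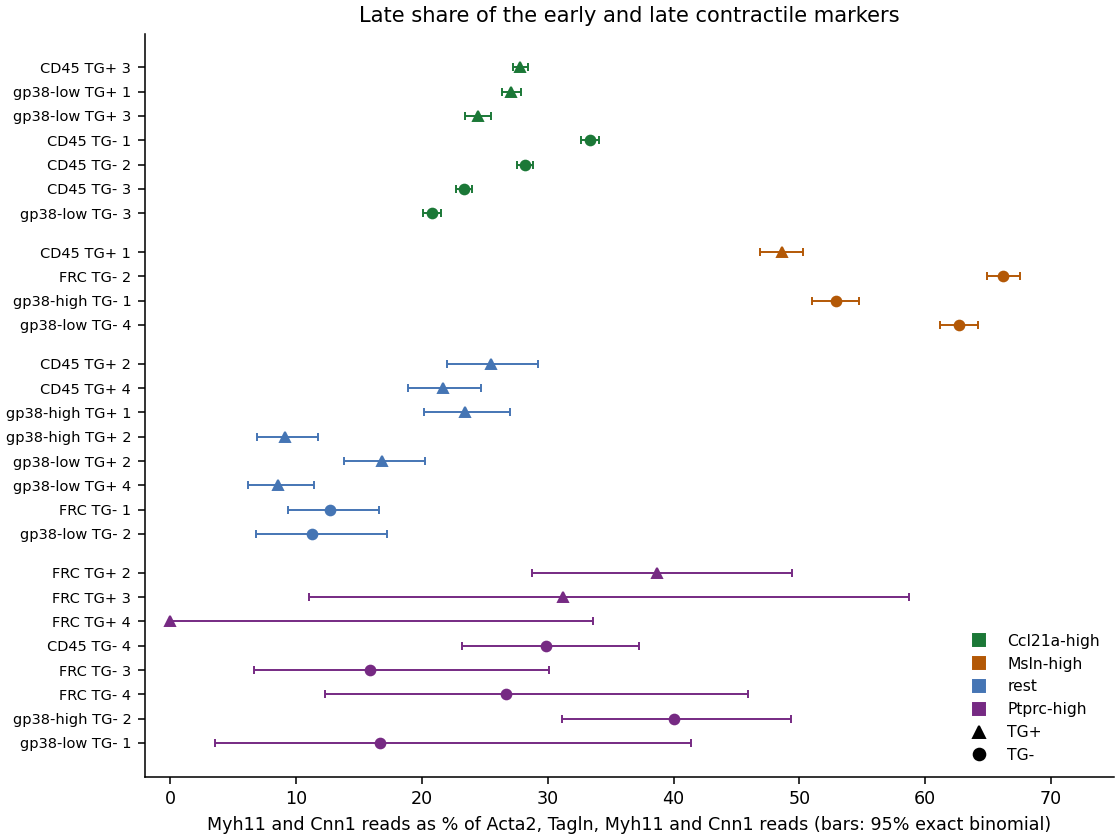
Late share, the reads of Myh11 and Cnn1 as a percent of those of Acta2, Tagln, Myh11 and Cnn1, in each library (TG+ triangles above TG- circles within each class), with exact 95% binomial bars. The 4 Msln-high libraries lie at 48.6% to 66.2%, to the right of the Ccl21a-high libraries and the rest, and the Ptprc-high bars are wide because those libraries hold at most 174 reads of the 4 genes.

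Nearly all late reads were Myh11: Cnn1 made up a median of 1.48% of them in Ccl21a-high libraries and 0.464% in Msln-high libraries. The ratio of Myh11 to Acta2 reads had a median of 0.797 (range 0.504 to 1.07) in the Ccl21a-high class, 1.75 (1.24 to 2.29) in the Msln-high class and 0.277 (0.168 to 0.643) in the rest. The ratio of the early markers, Tagln to Acta2, was 1.15 (0.901 to 1.27) in the Ccl21a-high class, 0.250 (0.173 to 0.377) in the Msln-high class and 0.742 (0.536 to 0.948) in the rest. The Msln-high libraries therefore had both more Myh11 and less Tagln for their Acta2 than any library of those classes. Per kb, the median late share was 9.54% in Ccl21a-high libraries, 28.4% in Msln-high libraries and 4.92% in the rest, with the Msln-high class again apart.

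Across the 27 libraries the 45 pairs of the 10 genes had a median Pearson correlation of 0.811 in log2(CPM + 1), with a range of -0.402 to 0.978. These points share library class, which sets most of the range. Within the 7 Ccl21a-high libraries the median was 0.168 and within the 8 of the rest 0.0791, so the common pattern lay between classes. The genes outside the list most like Acta2 and Tagln together, by correlation over 27 libraries among 11628 genes with a mean of at least 5 CPM, were Acacb (0.981), Cacna1c (0.981), Clec14a (0.979), Ltbp2 (0.978) and Cdh4 (0.978), then Adamts17, Nr2f1, Gm13889 and Phf24 (0.972). The genes most like Myh11 and Cnn1 were 5930412G12Rik (0.938), Adamts17 (0.937), Scube3 (0.935), Fas (0.932) and Parm1 (0.931), then Ltbp2, Fzd10, Igfbp2, Pcdh15 and Serpina3i (0.927). Ltbp2 and Adamts17 were the 2 genes on both lists. The limit of 5 CPM was set over all 27 libraries, so a gene could pass it through the Ccl21a-high class. For example, 5930412G12Rik averaged 5.99 CPM, with medians of 19.6 CPM in the Ccl21a-high class and 0.526 CPM in the rest. The lists are a description only.

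Other genes of the smooth muscle apparatus were read from lists, as the log2 ratio of class medians with 0.5 CPM added to each. The Ccl21a-high median was more than 1 above that of the rest in all 7 contractile genes that averaged at least 1 CPM outside the Ccl21a-high class. Of all 14965 genes that averaged at least 1 CPM over the 27 libraries, 9.33% were above in this way (median -0.13). This wider set also holds genes that reached the mean only through the Ccl21a-high class, and a share without them was not computed. Cnn1 and Lmod1, which reached that mean only through the Ccl21a-high class, were above too. Actg2, which did not reach that mean, was not. The median log2 ratio of the 10 genes was 3.17. Of 16 other filament and attachment genes, 8 did so (list median 1.08), and Smtn and Itga8 lay more than 1 below, where 14.3% of all genes did. Both were named after their values were seen. Smtn, which encodes the smooth muscle protein smoothelin, had medians of 46.4 CPM in the Ccl21a-high class and 125 CPM in the Msln-high class, against 100.4 CPM in the rest. Csrp1, a LIM protein of smooth muscle, had a median of 588 CPM in the Ccl21a-high class and 288 CPM in the Msln-high class, against 163 CPM in the rest. Tpm1, another tropomyosin, had 325 CPM in the Ccl21a-high class and 198 CPM in the Msln-high class, against 81.4 CPM in the rest. Flna, the actin crosslinker filamin A, which is not particular to muscle, had 1980 CPM in the Ccl21a-high class, 1460 CPM in the Msln-high class and 1668 CPM in the Ptprc-high class, against 1170 CPM in the rest.

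Of 14 contraction signalling genes, 3 had a Ccl21a-high median more than 1 above that of the rest on the log2 scale. These were Cacna1c, Kcnma1 and Gucy1a1 (list median 0.37), where 9.33% of all genes were above in this way. Prkg1 and Ednra lay more than 1 below, as 14.3% of all genes did. Cacna1c, the pore of the L-type calcium channel, had 179 CPM in the Ccl21a-high class and 22.7 CPM in the Msln-high class, against 10.6 CPM in the rest. Kcnma1, the pore of the large-conductance potassium channel that opposes contraction, had 91.7 CPM in the Ccl21a-high class and 6.38 CPM in the Msln-high class, against 3.62 CPM in the rest. Rock2, a kinase that holds the light chain phosphorylated, had 138 CPM in the Ccl21a-high class and 196 CPM in the Msln-high class, against 136 CPM in the rest. Both channels were thus highest in the Ccl21a-high class, and Rock2 in the Msln-high class. Gucy1a1, a subunit of the nitric oxide receptor guanylate cyclase, was named with Prkg1 and Ednra after their values were seen. It had 170.0 CPM in the Ccl21a-high class and 264 CPM in the Msln-high class, against 29.7 CPM in the rest.

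Among 8 regulators of these genes, Mrtfa alone had a Ccl21a-high median more than 1 above that of the rest (list median -0.34). Of all genes, 9.33% were above in this way. Mrtfa and Mrtfb, actin-sensing partners of serum response factor, had 116 and 57.5 CPM in the Ccl21a-high class and 46.8 and 69.7 CPM in the Msln-high class, against 55.5 and 75.1 CPM in the rest. Gata6 had 62.0 CPM in the Ccl21a-high class and 256 CPM in the Msln-high class, against 96.2 CPM in the rest. Klf4, a repressor of smooth muscle genes in vessels, had 267 CPM in the Ccl21a-high class and 737 CPM in the Msln-high class, against 472 CPM in the rest. Myocd, which encodes the muscle-restricted partner myocardin, was named after its values were seen: it was at most 0.0788 CPM in Ccl21a-high and 0.0526 CPM in Msln-high libraries, under the limit that a count of 0 allows, against at most 0.598 CPM in the rest.

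The non-muscle forms of the same proteins were read the same way (list median -0.32). Of 13, Cnn2 alone had a Ccl21a-high median more than 1 above that of the rest on the log2 scale (138 CPM, against 59.8 CPM). Actg1 alone lay more than 1 below (155 CPM, against 354 CPM). Of all genes, 9.33% were above and 14.3% below in this way. Cnn2, a calponin of many cell types, and Actg1, cytoplasmic gamma actin, were named after their values were seen. Actb, cytoplasmic beta actin, had medians of 2625 CPM in the Ccl21a-high class, 2862 CPM in the Msln-high class and 10849 CPM in the Ptprc-high class, against 3027 CPM in the rest. Myh9, non-muscle myosin heavy chain, had 1208 CPM in the Ccl21a-high class, 1323 CPM in the Msln-high class and 1987 CPM in the Ptprc-high class, against 672 CPM in the rest. Per kb, Actb (980 CPM per kb) stood above Acta2 (167 CPM per kb) even in the Ccl21a-high class, and Myh9 (93.4 CPM per kb) above Myh11 (35.6 CPM per kb).

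The summed pericyte markers were, like the contractile genes, highest in the Ccl21a-high class. The summed mesothelial, acinar and endothelial markers were not. The lymphoid stroma sum was highest there too, but it includes the class gene Ccl21a, so the class rule fixed that order. What part such cell types have in the levels of the contractile genes was not tested. The 11 pericyte markers summed to 3509 to 4723 CPM in the Ccl21a-high class and 201 to 256 CPM in the Msln-high class, against 583 to 821 CPM in the rest. Of these, 7 had a Ccl21a-high median more than 1 above the rest on the log2 scale (9.33% of all genes). Another 2 lay more than 1 below (14.3% of all genes). Those 2, named after their values were seen, were Cspg4 (8.81 CPM, against 49.4 CPM in the rest) and Ndufa4l2 (1.29 CPM, against 6.41 CPM). Notch3, a receptor of mural cells, had a median of 1295 CPM in the Ccl21a-high class and 20.6 CPM in the Msln-high class, against 92.0 CPM in the rest. Of these 3 classes, the pericyte sum was lowest in the Msln-high class, which also had the highest late share. Single markers differed: by median, Cspg4 was lowest in the Ccl21a-high class and Mcam, named after its values were seen, in the rest. Whether pericyte markers and the late share are linked was not tested. The 9 lymphoid stroma markers, which include the class gene Ccl21a, summed to 3601 to 7821 CPM in the Ccl21a-high class and 239 to 367 CPM in the Msln-high class, against 149 to 222 CPM in the rest. The 7 mesothelial markers, which include the class gene Msln, summed to 5046 to 5894 CPM in the Msln-high class, against 226 to 1226 CPM in the rest. The 7 acinar markers summed to 0.383 to 2.01 CPM in the Ccl21a-high class, 86.1 to 533 CPM in the Msln-high class and 256 to 3381 CPM in the Ptprc-high class, against 86.1 to 9633 CPM in the rest. The 8 endothelial markers summed to 36.2 to 77.2 CPM in the Ccl21a-high class and 239 to 409 CPM in the Msln-high class, against 148 to 324 CPM in the rest. Among them Kdr and Esam, named after their values were seen, had medians of 214 and 103 CPM in the Msln-high class, against 5.60 and 0.810 CPM in the rest, while Pecam1 had 2.36 CPM in the Msln-high class, against 0.807 CPM in the rest. These 3 had a Msln-high median more than 1 above the rest on the log2 scale (11.8% of all genes). Tek alone lay more than 1 below (7.44% of all genes). Tek had a median of 6.18 CPM in the Msln-high class, against 247 CPM in the rest, where the median sum of the 8 was 258 CPM. Leukocyte markers summed to at most 21.3 CPM in the 3 classes below the Ptprc threshold. Of 12 striated muscle markers, Ttn (titin) alone had a median above 1 CPM in the Ccl21a-high class, at 12.9, 43.3 and 170.3 CPM (lowest, median, highest). Actc1, the actin of heart muscle, had no read in any library of that class.

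Between the Msln-high class and the rest the same reading gave another set of genes. Acta2, Myh11, Mylk, Des and Tpm2 had a Msln-high median more than 1 above that of the rest on the log2 scale, against 11.8% of 14965 genes, and Myl9 and Lmod1 lay more than 1 below, against 7.44%. Tagln, Cnn1 and Actg2 lay between. Of the 16 other filament and attachment genes, 7 were above (list median 0.88) and Itga8 was below. Of the 11 pericyte markers, 7 were below and 0 above.

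By label, the summed level of the 10 genes spread widely within groups. The CD45 TG+ libraries had 512, 159, 2936 and 167 CPM (replicates 1 to 4), against 2652, 2614, 2731 and 21.0 CPM in CD45 TG-. The gp38-high libraries had 142 and 161 CPM in TG+, against 287 and 19.2 CPM in TG-. In CD45, both genotypes thus held libraries at the Ccl21a-high level and libraries far below it. The gp38-low libraries had 2540.2, 173, 2269.5 and 158 CPM in TG+, against 13.6, 144, 2828 and 458 CPM in TG-. The FRC libraries had 17.6, 18.3 and 6.67 CPM in TG+ (replicates 2 to 4), against 160.0, 611, 15.9 and 9.57 CPM in TG-. Each labelled group except FRC TG+ and gp38-high TG+ held libraries of 2 or more classes.

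**Figure D4:**
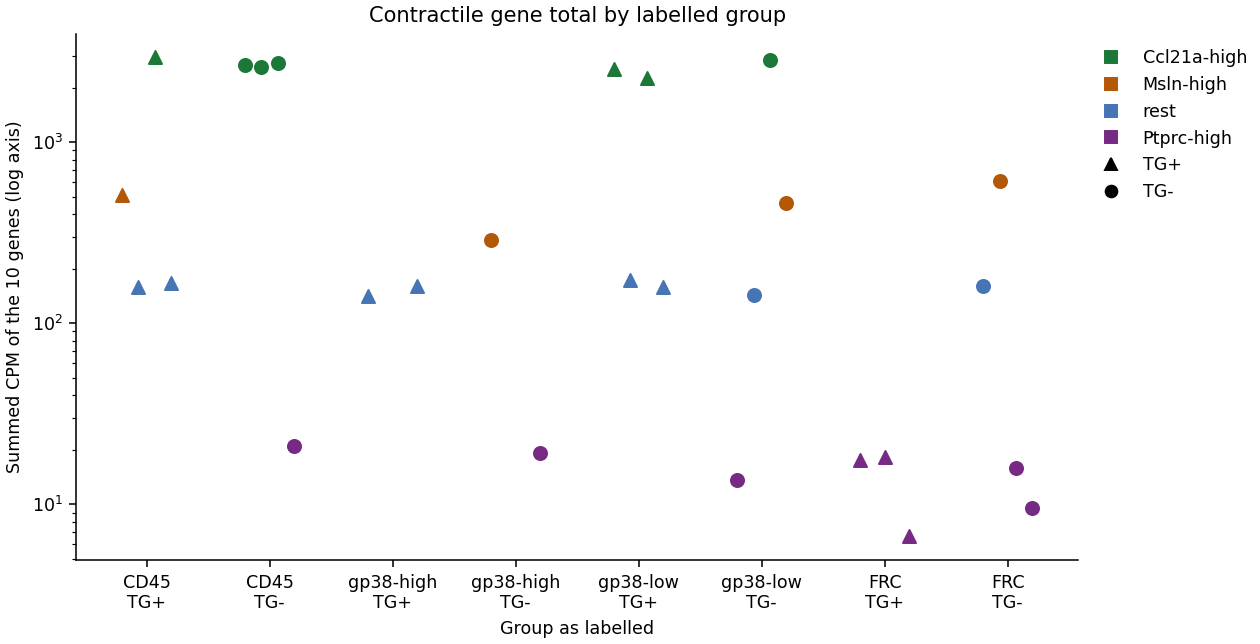
Summed CPM of the 10 contractile genes (log axis) in each library by labelled group, TG+ left of TG- within each population, coloured by library class. Each colour keeps to its own range of heights whatever the label, and 6 of the 8 groups mix colours.

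The transgene comparison asks whether CCL21 in beta cells goes with another level of these genes in each sorted population. No contractile gene was called in any labelled population: edgeR's quasi-likelihood test called 0 genes of all tested (0%) at an adjusted p of 0.05 in CD45, gp38-high, gp38-low and FRC alike. In CD45 libraries, 9 of 9 tested contractile genes had a lower mean in TG+ (53.1% of 14871 genes had a log2 difference below 0), and 0 of 9 had an unadjusted p under 0.05 (9.43% of genes). The log2 difference of TG+ from TG- was -1.05 ± 1.33 (SE) for Acta2, -1.13 ± 1.55 for Tagln, -0.90 ± 1.41 for Myh11 and -3.10 ± 1.36 for Cnn1 (smallest adjusted p of the 9, 0.533, edgeR, n = 4 each). Over all tested genes 1402 had an unadjusted p under 0.05, DESeq2 called 425 and limma-voom 6184. With limma-voom, which weights libraries by quality, all 4 early and late markers passed, Tagln with a log2 difference of -4.81 (adjusted p = 0.000554) and Myh11 with -4.80 (adjusted p = 0.000719). In TG-, replicates 1 to 3 were Ccl21a-high and replicate 4 Ptprc-high. In TG+, replicate 1 was Msln-high, replicate 3 Ccl21a-high and replicates 2 and 4 of the rest. The difference thus mixes class and genotype. Without CD45 TG+ replicate 3, the 1 Ccl21a-high TG+ library of this population, edgeR called 519 genes, none of them among the 4 markers, and Tagln differed by -4.24.

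In gp38-high libraries, 5 of 10 contractile genes were above 0 and 5 below, between -2.43 ± 2.73 for Myh11 and 3.15 ± 1.84 for Myl9 (adjusted p = 0.663, edgeR). Of 17937 genes 41.5% were above 0 and 58.4% below, and 0 of 10 members had an unadjusted p under 0.05 (920 genes, 5.13%), DESeq2 calling 40 genes and limma-voom 0. Acta2 differed by -0.42 ± 2.36, Tagln by 0.41 ± 2.42 and Cnn1 by -1.40 ± 2.56, each smaller than its error. Both TG+ libraries were of the rest, and the TG- libraries were 1 Msln-high and 1 Ptprc-high, so class and genotype cannot be told apart in this population.

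In gp38-low libraries, 7 of 8 tested contractile genes were above 0 (49.4% of 14095 genes), with 0 of 8 at an unadjusted p under 0.05 (273 genes, 1.94%), DESeq2 calling 1 gene and limma-voom 0. Acta2 differed by 0.18 ± 1.77, Tagln by 0.40 ± 1.87 and Myh11 by 0.28 ± 1.91 (adjusted p = 0.999 for each, edgeR, n = 4 each). All 3 turned negative without gp38-low TG- replicate 1, a Ptprc-high library (-0.23, -0.015 and -0.13).

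In FRC libraries, 7 of 7 tested contractile genes were lower in TG+ (47.7% of 13819 genes were below 0), and Des, Myl9 and Tpm2 had an unadjusted p under 0.05, where 6.96% of genes were lower in this way (981 genes or 7.1% in either direction). Acta2 differed by -3.58 ± 1.97, Tagln by -1.96 ± 1.13 and Myh11 by -4.62 ± 2.63, and Des by -4.35 ± 1.74 (adjusted p = 0.696, the smallest of the 7, edgeR, n = 3 and 4). DESeq2 called 542 genes and limma-voom 0. All 3 TG+ libraries were Ptprc-high, whereas TG- held 2 Ptprc-high libraries, 1 Msln-high library and 1 of the rest, so the difference mixes class and genotype. Within the 5 Ptprc-high FRC libraries the 10 genes summed to 17.6, 18.3 and 6.67 CPM in TG+, against 15.9 and 9.57 CPM in TG-, and the genotypes overlapped. Without FRC TG- replicate 2, the Msln-high library, Acta2 differed by -1.55 and Tagln by -1.34, and without FRC TG+ replicate 2 Acta2 differed by -6.23 and Myh11 by -6.97.

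The sorted populations were compared with both genotypes weighted equally, to ask whether the FRC-like islet cells carry these genes as lymph node FRCs do. All 10 contractile genes were below 0 in gp38-high against gp38-low (median -2.96, against -0.03 for all 18396 genes, of which 52.7% were below 0). Acta2 differed by -3.42 ± 1.78, Tagln by -4.25 ± 1.66, Myh11 by -3.25 ± 2.06 and Cnn1 by -3.25 ± 1.66. Without gp38-low TG- replicate 3, a Ccl21a-high library, they differed by -2.05, -2.04, -2.58 and -1.41. Tagln, Mylk and Des had an unadjusted p under 0.05, where 2.54% of genes were lower in this way (509 genes or 2.77% in either direction), and 0 genes passed an adjusted p of 0.05 in edgeR. DESeq2 called 139 genes and limma-voom 0, and by DESeq2 Tagln fell by 4.24 (adjusted p = 0.0435). Of the 8 gp38-low libraries 3 were Ccl21a-high, and of the 4 gp38-high libraries none was.

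In gp38-low against FRC, 9 of 10 contractile genes were above 0 and had an unadjusted p under 0.05, where 21% of 18396 genes were higher in this way. The median log2 difference was 3.86, against 0.15 for all genes. Acta2 differed by 4.68 ± 1.54, Tagln by 5.65 ± 1.44, Myh11 by 3.66 ± 1.71 and Cnn1 by 4.06 ± 1.46, and Actg2, the exception, by -0.20 ± 0.97. No gene passed an adjusted p of 0.05 in edgeR (smallest 0.0943, also that of Acta2 and Tagln), while 6639 (36.1%) had an unadjusted p under 0.05. DESeq2 called 4748 genes and limma-voom 8651, with Acta2 at an adjusted p of 0.00145 by DESeq2 and 0.0169 by limma-voom. All 4 early and late markers passed in DESeq2, and all but Myh11 in limma-voom. Without gp38-low TG- replicate 1, a Ptprc-high library, edgeR called 5403 genes, among them Acta2 (adjusted p = 0.0261), Tagln and Cnn1. Without FRC TG- replicate 1, of the rest, it called 1369, with Tagln at an adjusted p of 0.0489. Without all Ptprc-high libraries, which are 5 of the 7 FRC libraries and 1 of the 8 gp38-low libraries, Acta2 differed by 2.44 ± 1.75 and Myh11 by 1.28 ± 2.29, and edgeR called 0 genes, in a fit with genotype as an additive term.

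In gp38-high against FRC, 9 of 10 contractile genes were above 0 (53.8% of 18396 genes), with 0 of 10 at an unadjusted p under 0.05 (3014 genes, 16.4%). Acta2 differed by 1.25 ± 1.51, Tagln by 1.40 ± 1.34, Myh11 by 0.41 ± 1.78 and Cnn1 by 0.81 ± 1.58. No gene was called by edgeR or limma-voom, and DESeq2 called 721. Without the Ptprc-high libraries Acta2, Tagln and Myh11 were below 0 (-0.82, -0.0062 and -1.80), in a fit with genotype as an additive term, since the 2 FRC libraries left were both TG-.

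The transgene was also compared within library classes over all 27 libraries, with the class as a block; this comparison was chosen after seeing the data. The 10 contractile genes lay between -0.32 and 0.19 on the log2 scale, 5 above 0 and 5 below (50% of 18393 genes each way), with errors of 0.18 to 0.56. Acta2 differed by 0.07 ± 0.33, Tagln by 0.17 ± 0.21, Myh11 by 0.19 ± 0.39 and Cnn1 by -0.17 ± 0.56 (adjusted p from 0.760 to 0.951, edgeR, n = 13 TG+ and 14 TG-). By edgeR, DESeq2 and limma-voom alike 0 genes passed an adjusted p of 0.05, while 1779 (9.67%) had an unadjusted p under 0.05 in edgeR, none of them a contractile gene. In the Ccl21a-high class alone, Acta2 had 275, 366 and 396 CPM in the 3 TG+ libraries, against 306, 354 and 456 CPM (lowest, median, highest) in the 4 TG- libraries, and Myh11 had 167, 292 and 347 CPM in TG+, against 230.0, 258 and 329 CPM in TG-. The genotypes overlapped in all 10 genes of that class. In the rest, Tagln had 10.2, 11.8 and 13.4 CPM (lowest, median, highest) in the 6 TG+ libraries, against 6.70 and 9.39 CPM in the 2 TG- libraries, and was higher in TG+ without overlap, as 29.5% of 14965 genes were. Des had 18.8, 22.8 and 31.2 CPM in TG+, against 40.2 and 50.9 CPM in TG-, and was lower without overlap, as 11.9% of genes were. The other 8 genes overlapped between genotypes there.

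**Figure D5:**
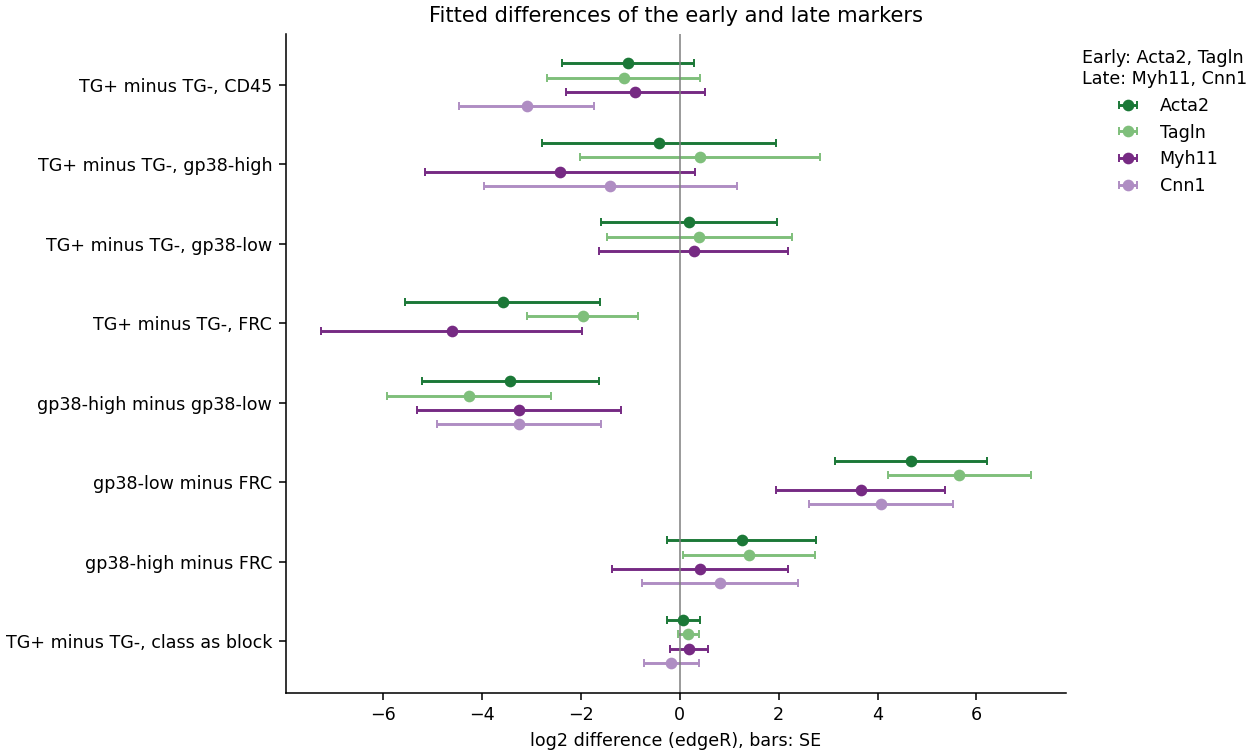
Fitted log2 differences with SE of the early markers Acta2 and Tagln and the late markers Myh11 and Cnn1 in each comparison, TG+ minus TG- in the upper 4 rows and in the last row, and between populations in the other rows. Errors span 1.13 to 2.73 in the comparisons by label and 0.21 to 0.56 with the class as a block, and Cnn1 is missing where it did not pass the expression filter.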

How the data were processed

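Sorted cells were lysed in TRIzol and total RNA libraries were made with a kit that removes ribosomal RNA, per the labels' protocols. The submitters' processing notes name STAR 2.5.2a with mm10, Trim Galore 0.4.3 and bcl2fastq 2.17, and an annotation release was not given in the sources used here. For each library the authors deposited raw read counts per gene (27 libraries in all), in 3 columns by strand. The reverse-strand column was used, since the forward column held 6.67% to 15.3% of stranded reads. Lines for reads in no gene were left out: unmapped reads were 19.4% to 67.7% of all. Of 54446 IDs, 54409 matched GENCODE M21.

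CPM was computed over reads in genes. Tests used TMM, filterByExpr and the robust quasi-likelihood F test of edgeR 4.0.16 in R 4.3.3, with Benjamini-Hochberg adjustment over all genes tested at 0.05. Each SE is the log2 difference divided by the square root of F. CD45, gp38-low and FRC were fitted alone, gp38-high with the 12 islet stromal libraries, populations with the 19 stromal libraries. DESeq2 1.42.0, limma-voom (limma 3.58.1) with quality weights, other size factors, no filter, unstranded counts, Gm26917 left out and left-out libraries were alternatives. The test was checked on simulated counts. Intervals are exact Clopper-Pearson at 95% (scipy 1.17.1) and, like floors, cover counting error only.

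All 10 members are named, with fits for the early and late markers. From each other list, the 2 genes with the highest mean CPM and the 2 most correlated with the members could be named, and 10 genes most like each marker pair were, except 1 that is not reported here. The members and lists were chosen with earlier results of these data known. RefSeq promoters (GRCm38.p6) were matched by symbol for 7 of 10 members. Of windows of 50 bases in the longest transcripts, 0.352% of those of Acta2 and 0.4% of those of Myh11 occur in other genes, and 0% of the others.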

Additional observations from a re-analysis of the deposited data

Results flagged for a closer look

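Of 50 tests of 1 contractile gene in 1 labelled group of 4 libraries, 14 had a library farther from the other 3 than Dixon's 95% critical value allows. Chance flags about 1 in 20 groups. The libraries of a test share their class across genes, so these are not 14 separate events.

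CD45 TG+ replicate 3 stood above the other 3 libraries of its group in Tagln (505 CPM, next 30.2 CPM), Mylk (745 CPM, next 107 CPM) and Des (778 CPM, next 77.7 CPM). It was the only Ccl21a-high library of that group. In CD45 TG-, replicate 4 stood below the others in Tpm2 (1.84 CPM, next 56.4 CPM), and it was the only Ptprc-high library there.

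In gp38-low TG-, replicate 3 stood above the other 3 libraries in Acta2 (456 CPM, next 69.9 CPM), Tagln (446 CPM, next 12.4 CPM), Cnn1 (7.49 CPM, next 0.316 CPM), Mylk (470.2 CPM, next 84.7 CPM), Des (1012 CPM, next 73.6 CPM) and Lmod1 (6.58 CPM, next 0.670 CPM). It was the only Ccl21a-high library of its group.

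FRC TG- replicate 2, the only Msln-high library of its group, stood above the others in Acta2 (85.4 CPM, next 12.5 CPM), Myh11 (195 CPM, next 3.11 CPM), Cnn1 (0.759 CPM, next 0.108 CPM) and Tpm2 (88.8 CPM, next 14.0 CPM). What sets the class of a library was not tested.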

How the results depend on the processing

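EdgeR called 0 genes in all 8 comparisons, also with other size factors, no filter, unstranded counts or a replicate block. DESeq2 called 425 (CD45), 40 (gp38-high), 1 (gp38-low), 542 (FRC), 139 between gp38-high and gp38-low, 4748 in gp38-low against FRC, 721 in gp38-high against FRC and 0 within classes. Limma-voom called 6184 in CD45, 8651 in gp38-low against FRC and 0 elsewhere. Leaving out 1 library gave 0 to 519 genes in CD45, 0 to 5403 in gp38-low against FRC and 0 elsewhere. The log2 difference turned sign in gp38-high for Acta2 with the replicate block (0.71) and for Tagln without Ptprc-high libraries (-0.34); in gp38-low for Acta2, Tagln and Myh11 with limma-voom (-0.54, -0.52 and -0.91) and without Ptprc-high libraries (-0.23, -0.015 and -0.13); in gp38-high against FRC without Ptprc-high libraries (-0.82, -0.0062 and -1.80) and for Cnn1 with the block (-0.041); and within classes for Tagln unstranded (-0.13) and Myh11 with limma-voom (-0.12). With 1 library left out, Acta2, Tagln and Myh11 ranged over -1.30 to 2.38, -0.35 to 2.24 and -3.91 to 0.78 in gp38-high, -0.43 to 2.93, -0.47 to 4.83 and -0.60 to 1.63 in gp38-low, and -0.12 to 0.21, -0.043 to 0.29 and -0.033 to 0.33 within classes, where Cnn1 had -0.70 to 0.15. In gp38-high against FRC, Acta2 had -0.12 to 2.62 and Myh11 -1.17 to 2.83. Without 1 library, Acta2 and Tagln ranged over -2.78 to -0.67 and -4.24 to -0.75 in CD45, -6.23 to -1.55 and -2.51 to -1.34 in FRC, -4.80 to -2.05 and -5.14 to -2.04 in gp38-high against gp38-low, and 3.30 to 6.05 and 3.44 to 5.96 in gp38-low against FRC. Of the early and late markers' differences, 213 under other settings and 324 with 1 library left out kept direction and side of the threshold. In the same direction, 12 and 4 moved past it, and 14 and 23 turned sign. The summed level was 2246 CPM unstranded and 2994 CPM without Gm26917 in the Ccl21a-high class, 144 and 172 CPM in the rest, and 22.3 CPM without Gm26917 in the Ptprc-high class. Unstranded, the late share was 43.9% (Ccl21a-high), 21.8% (rest) and 44.3% (Ptprc-high), since the unstranded column holds 6.20% of the Tagln reads. Myh11 against Acta2 alone gave 44.4%, 21.6% and 45.6%; per kb the share was 9.54%, 4.92% and 10.6%, and 28.4% in the Msln-high class. Halved thresholds changed no class; doubled ones moved FRC TG- replicate 4 (9.57 CPM for the 10 genes) to the rest, where the median sum stayed at 159 CPM and the median Myh11 level was 3.11 CPM. The setting without Ptprc-high libraries was not run for the transgene in FRC, whose 3 TG+ libraries are all Ptprc-high. Deviations of same-numbered libraries correlated at -0.19 to 0.24 in CD45, -0.01 in gp38-high, 0.06 to 0.69 in gp38-low and -0.17 to -0.01 in FRC. The 0.69 came from gp38-low replicate 3, where both libraries were Ccl21a-high. Same-numbered libraries often differed in class, so this check cannot tell whether replicate numbers pair the samples. Cnn1, Lmod1 and Actg2 are limited by depth, with few reads per library.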
